A study of Homo sapiens with 4 samples.

Results

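Chromosome 20 of the OVSAHO genome was described from every peak that lay on it in 8 lists of open chromatin, a narrow and a broad list from each of 4 libraries. It held 3642 of the 78048 peaks on chromosomes 1 to 22 and X, or 4.67%, of which 1255 of 23375 were narrow and 2387 of 54673 broad. The chromosome was selected on earlier results of the same lists, in which its peaks and their local background stood high. Peak number and background are therefore given as descriptions with no test. OVSAHO is an established cell line from a high-grade serous ovarian carcinoma. The 2 test libraries came from cells named OVSAHO-A2-siA4, in which SMARCA2 was stably raised and SMARCA4 knocked down. The 2 control libraries came from wild-type cells named OVSAHO-Ctrl-siNC, and all 4 libraries, controls included, came from cells kept in 25 µM carboplatin, a platinum drug that crosslinks DNA, for 2 days. Whether the libraries of a group were separate cultures, and whether the SMARCA2 cells were a clone or a pool, is not stated in the labels, so any p-value measures only the sample-to-sample spread seen here, possibly technical. No gene names could be attached to hg19 peaks here, so neither the cell type nor the change in SMARCA2 and SMARCA4 was checked against genes.

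SMARCA2 and SMARCA4 are the alternative motor subunits of the SWI/SNF chromatin remodelling complexes, which slide or evict nucleosomes. ATAC-seq reads open chromatin as the density of DNA fragments cut out by a transposase, and fragments also come at a low rate from closed DNA. That low rate rises with the number of DNA copies of a segment and with how accessible its surroundings are. Gains of the long arm of chromosome 20 are common in ovarian and other carcinomas, and the arm carries AURKA, a mitotic kinase, ZNF217, a transcription factor, and BCL2L1, which restrains cell death. DNA copy number was not measured in these libraries, and its part in the values below was not tested.

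For each peak the lists give a pileup, the fragments stacked over it, and a fold enrichment, the pileup over the local background of that library after 1 fragment is added to both. Pileups are whole numbers in narrow lists and mostly fractional in broad lists, so heights are not compared between narrow and broad peaks. To recover the local background, pileup + 1 was divided by the fold enrichment and 1 was taken off. The result was divided by the median over the peaks of the same list outside dense windows (defined below), so that 1 is the typical such peak of that library. The lowest recovered background of a list lay between 1.002 and 1.016 times the genome-wide average given in its header. This checks the recovery at its lowest values only and not at raised ones. The narrow lists rest on 6146272 to 15828837 fragments free of nucleosomes and the broad lists on 22432549 to 31515662 fragments of all sizes. Control 1 was the deepest library in both, had the longest lists and had the shortest mean fragment in its broad list, 131 bp against 178 to 182 bp. The effect of its depth on the peak counts below cannot be told apart from its other traits. The median narrow-peak background was 0.319 and 0.312 fragments in the test libraries 1 and 2, and 0.586 and 0.352 in the controls 1 and 2. Of 34 windows of 1 Mb in which 5 or more narrow regions were called in all 4 libraries, here called dense windows, 1 was on chromosome 20 (chr20:26000001-27000000, hg19), and its 115 peaks were left out of the background values. The peaks of the other dense windows were left out of each library median too. That left 1192 narrow and 2335 broad peaks of the chromosome.

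The raised background lay on the long arm, while the short-arm median sat near the level of the typical peak. The arms were split at the longest stretch without a peak in any list, chr20:26319489-29419685 in hg19, which is 3.1 Mb long. Values are given below as test 1, test 2, control 1 and control 2, unless the libraries are named. In narrow peaks the long-arm background was 1.97, 1.94, 2.01 and 2.11 times the library median, a mean of 2.01 ± 0.0759 (SD, n = 4). On the short arm it was 1.03, 0.884, 1.11 and 0.944, a mean of 0.993 ± 0.100 (SD, n = 4). These short-arm medians rest on 18, 19, 123 and 41 peaks. Of those, 10, 7, 59 and 11 lay at 20 to 25 Mb and 3, 2, 27 and 6 further in. Where it could be measured, background was higher there than nearer the tip, as given below. The short-arm median thus mixes a higher inner end with a lower outer part. The lowest long-arm value was above the highest short-arm value, and the interquartile ranges of the arms overlapped at their edges in test 1 and control 1 and not in the other libraries. This was a property of most long-arm peaks and not of a few, since 103 of 107, 142 of 153, 500 of 540 and 184 of 191 lay above their library's median.

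The broad lists, built from all fragments of the same libraries, gave the same pattern of arms. Their long-arm background was 2.07, 1.96, 2.15 and 2.37, a mean of 2.14 ± 0.173 (SD, n = 4). The short-arm mean was 0.986 ± 0.136 (SD, n = 4), with libraries from 0.796 to 1.12. Both kinds of list come from the same DNA, so the second is no separate replicate of the first. The background is averaged over 10 kb, in which other peaks add fragments. Among narrow peaks with no other peak of the list within 10 kb the long-arm ratio was about as large, 2.11, 1.84, 1.97 and 2.16. With the fragments of the peak itself subtracted, an alternative added after the data were seen, it was 2.21, 2.03, 2.06 and 2.33.

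**Figure D1:**
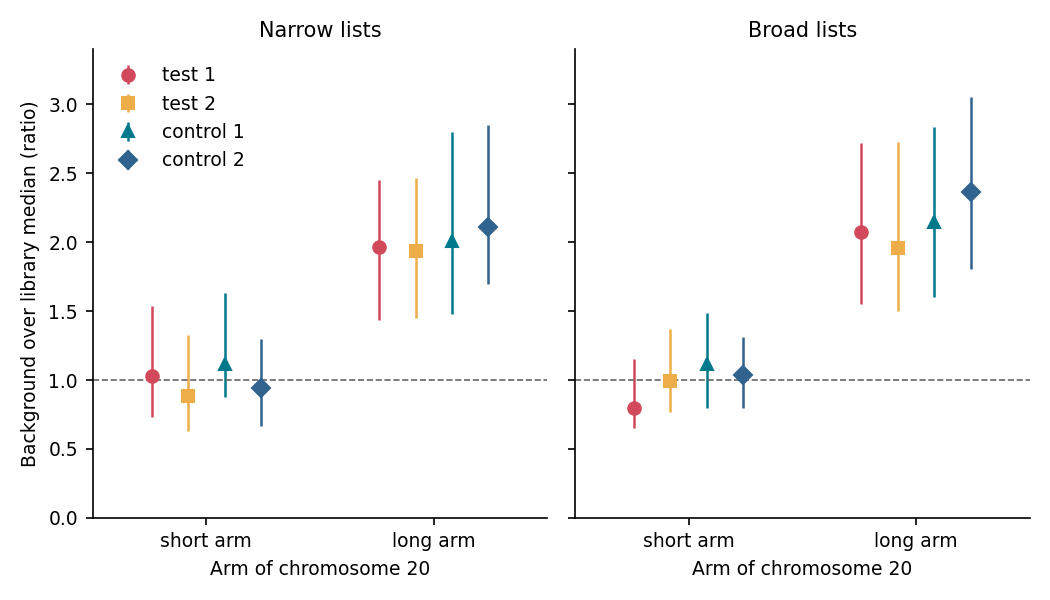
Local background of chromosome 20 peaks over the library median (ratio, y axis) by arm (x axis), for narrow lists on the left and broad lists on the right. Points are medians over the peaks of a library outside the dense window and bars span their interquartile range. Long-arm medians lie between 1.94 and 2.37 and short-arm medians between 0.796 and 1.12, and the dashed line marks the typical peak of a library.

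Among the 23 chromosomes measured, chromosome 20 had the highest median background in each of the 4 libraries, in narrow and in broad lists. Its narrow value over both arms was 1.93, 1.82, 1.89 and 1.95, a mean of 1.90 ± 0.0574 (SD, n = 4), and its broad mean was 1.92 ± 0.0879. Chromosome 19, which is small and rich in genes, came next with a narrow mean of 1.52 ± 0.0644 (SD, n = 4) and a broad mean of 1.54 ± 0.0482, and its libraries did not overlap those of chromosome 20. Chromosome 17 followed at 1.21 ± 0.366, a mean set by control 1 at 1.76, while the other libraries were between 0.995 and 1.06. Since chromosome 20 was selected on this kind of value, its first place is what the selection used and carries no test. With every chromosome split at its own longest peak-free stretch, the long arm of chromosome 20 ranked 2 of 45 measured segments in narrow lists and 1 of 46 in broad lists, and the short arm ranked 13 and 17. That stretch is not the centromere on some of the other chromosomes, so these ranks compare segments and not arms.

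**Figure D2:**
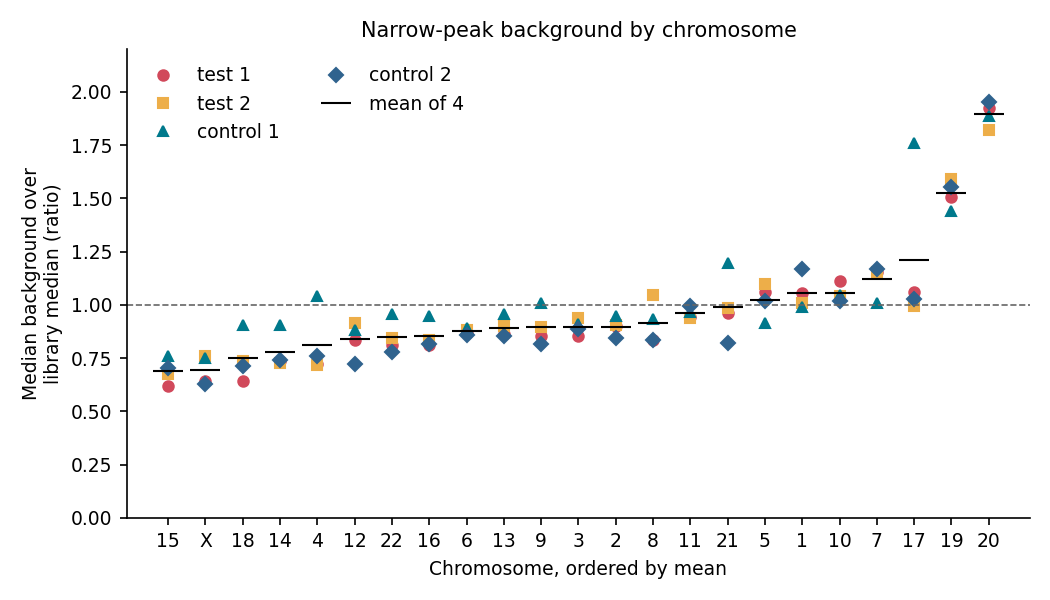
Median local background of narrow peaks over the library median (ratio, y axis) for each chromosome (x axis, ordered by the mean). Symbols are the 4 libraries, short lines their mean, and the dashed line the typical peak of a library. Chromosome 20 stands at the right with a mean of 1.90, above chromosome 19 at 1.52, and chromosome 17 is high in control 1 alone.

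Along the chromosome the background was not a flat step. In bins of 5 Mb with 3 or more usable narrow peaks in each library, 7 of 9 measurable bins had a ratio of 1.2 or more in all 4 libraries, against 47 of 291 such bins over all chromosomes (16.2%). In the broad lists 7 of 13 bins did, against 55 of 489 (11.2%). The rule that picked the chromosome used these values, so nothing is read from the difference in share. The 3 highest narrow bins were 25 to 30 Mb at 2.76 ± 0.230, 60 to 65 Mb at 2.60 ± 0.276 and 30 to 35 Mb at 2.30 ± 0.174 (mean ± SD, n = 4), which ranked 9, 10 and 15 of the 291 bins.

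The bin from 25 to 30 Mb spans the peak-free stretch and holds both ends of it. Its long-arm part was 2.52, 3.20, 3.07 and 3.19. The short-arm part was 2.25 in test 1, 1.73 in the first control and 1.19 in the second, with too few peaks in test 2. The long-arm side of the stretch was thus above every other bin of the chromosome in all 4 libraries, and the short-arm side varied between libraries. The bin at the far end of the long arm, 60 to 65 Mb, read 2.41, 2.32, 2.81 and 2.86, so both controls lay above both test libraries there. The bin from 30 to 35 Mb read 2.14, 2.17, 2.52 and 2.35, in the same arrangement.

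Between these high ends the long arm had a trough. The bins from 35 to 40 Mb and 40 to 45 Mb were at 1.74 ± 0.273 and 1.75 ± 0.0623, the bin from 45 to 50 Mb at 2.08 ± 0.140, and the bin from 50 to 55 Mb at 1.32 ± 0.304 (mean ± SD, n = 4). That lowest long-arm bin read 1.16, 1.31, 1.06 and 1.75, so the controls spanned the test libraries. The bin from 55 to 60 Mb was at 1.57 ± 0.237, with libraries at 1.34, 1.52, 1.90 and 1.54. On the short arm the 1 bin measurable in all 4 narrow lists, 20 to 25 Mb, was at 1.30 ± 0.132, with libraries at 1.14, 1.42, 1.24 and 1.40. The other short-arm bins, from 0 to 20 Mb, had enough narrow peaks in some libraries only and ran from 0.630 to 1.01. In broad lists, where all of them could be measured, their means were 0.875, 0.708, 0.738 and 0.821 from the tip inward, rising to 1.13 at 20 to 25 Mb. Recovered background cannot fall below about the genome-wide average, so these ratios have a floor. The lowest values in broad lists were 1.48, 1.57, 1.53 and 1.72 fragments, against library medians of 2.37, 2.29, 2.11 and 2.57. Close to it was the bin from 5 to 10 Mb in test 1, test 2 and control 1 (0.627, 0.686 and 0.726). The bin from 10 to 15 Mb was close to it in control 1 and control 2 (0.725 and 0.669). Lower levels could not be read there. Just inside the threshold of 1.2 were the bins from 55 to 60 Mb and 35 to 40 Mb, whose lowest libraries read 1.34 and 1.35. Just outside were those from 20 to 25 Mb and 50 to 55 Mb, with lowest libraries at 1.14 and 1.06.

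The 4 libraries gave much the same profile. Over the 9 bins Pearson's r between any 2 narrow profiles was between 0.863 and 0.938, and over the 13 broad bins between 0.847 and 0.972. These are descriptions across bins, which are not replicates and share the cell line, the genome build and its mappability.

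**Figure D3:**
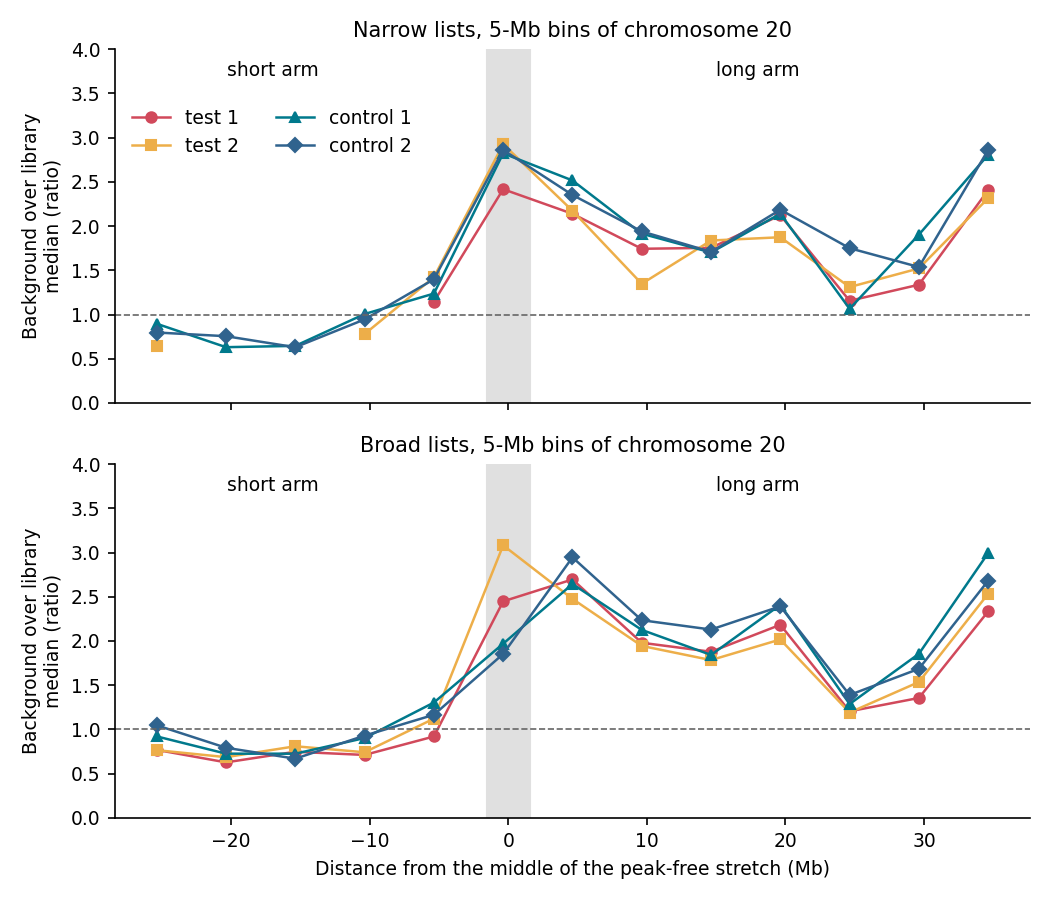
Median local background over the library median (ratio, y axis) in 5-Mb bins of chromosome 20, by the distance of the middle of the bin from the middle of the peak-free stretch (Mb, x axis), for narrow lists above and broad lists below. Each line is a library, points are shown where it has 3 or more usable peaks, the grey band is the peak-free stretch and the dashed line the typical peak. All lines lie near or below 1 over most of the short arm, rise to means of 2.76 and 2.60 near the 2 ends of the long arm in narrow lists, and dip to 1.32 between them.

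Broad peaks were numerous enough for windows of 1 Mb, a size chosen after the 5-Mb values had been seen. Of 27 long-arm windows measured in all 4 libraries, 24 were at 1.2 or more in each of them and 12 at 2 or more. Of 7 such short-arm windows 1 was at 1.2 or more in each library and 3 were below 1 in each. The choice of the chromosome used this kind of value, and the share over other chromosomes was not computed. Nothing is therefore read from these counts. The window right after the peak-free stretch, 29 to 30 Mb, had the highest mean, 3.16 ± 0.131, with libraries at 3.27, 3.27, 3.03 and 3.06. Both controls were higher elsewhere, at 3.10 in control 1 at 61 to 62 Mb and at 3.54 in control 2 at 33 to 34 Mb. Then came 33 to 34 Mb at 3.05 ± 0.428 and 48 to 49 Mb at 2.99 ± 0.287 (mean ± SD, n = 4). The trough narrowed to 53 to 55 Mb, where the windows were at 1.0 ± 0.0832 and 1.11 ± 0.206, the level of a typical peak of the library. On the short-arm side the window of 25 to 26 Mb was at 1.95 ± 0.613, from 1.41 in test 1 to 2.83 in test 2.

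**Figure D4:**
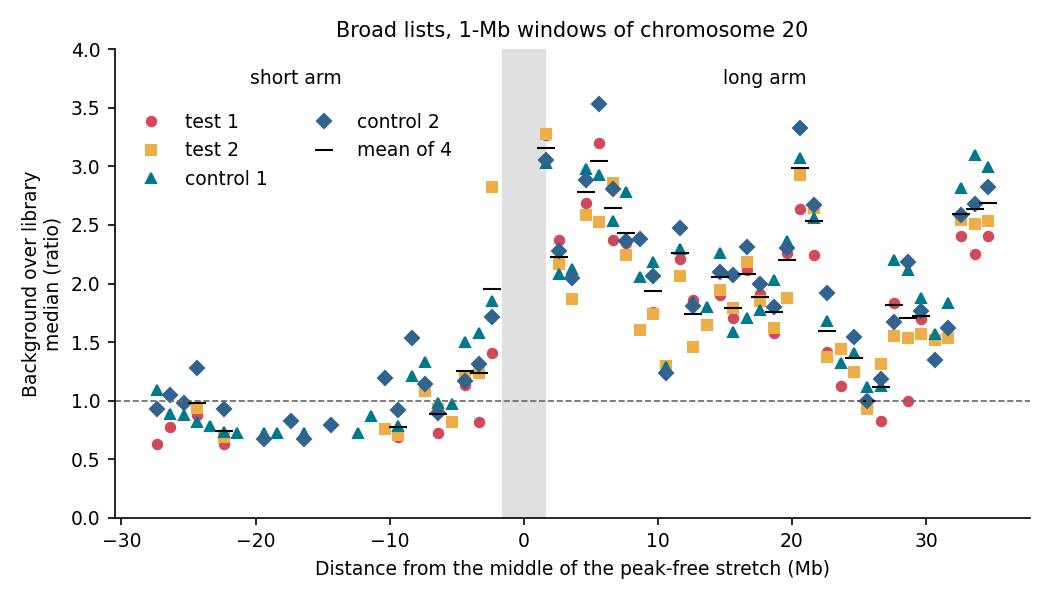
Median local background of broad peaks over the library median (ratio, y axis) in 1-Mb windows of chromosome 20, by distance from the middle of the peak-free stretch (Mb, x axis). Symbols are libraries, shown where a window has 3 or more usable broad peaks, and short lines are means of windows measured in all 4. The long arm starts at 3.16, has a further high of 2.99 in its middle, drops to 1.0 and ends at 2.69.

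Peak numbers followed the same split of arms. Per Mb of covered chromosome the narrow lists held 2.29, 3.08, 11.5 and 4.08 peaks, against 1.03, 1.27, 2.95 and 1.61 on the median chromosome. Chromosome 20 ranked first of 23 in control 1 and second in the other libraries, and the broad lists gave the same ranks. The long arm covers 33.5 Mb, or 56.1% of the covered length, and held 2.79, 3.86, 2.81 and 2.82 times as many narrow peaks per Mb as the short arm. In broad lists that ratio was 2.17, 3.24, 2.67 and 2.05. The bin from 30 to 35 Mb was the fullest in 3 libraries, with 23.4% of the narrow peaks of the chromosome in test 1, 22.8% in test 2 and 22.1% in control 2, but it held 10.3% in control 1, whose peaks were spread more evenly.

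**Figure D5:**
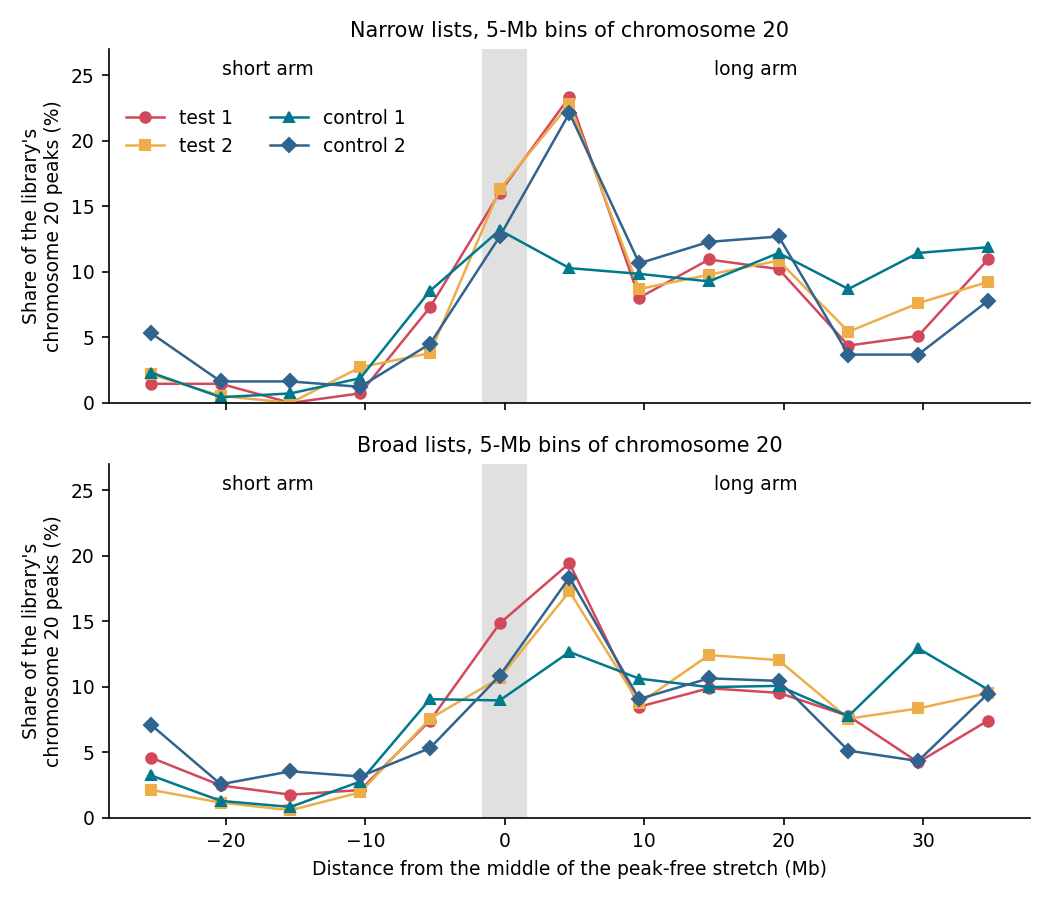
Share of the peaks of chromosome 20 in each 5-Mb bin (percent of the peaks of the library on that chromosome, y axis) by distance from the middle of the peak-free stretch (Mb, x axis), for narrow lists above and broad lists below. Each line is a library and all peaks are counted, the dense window included. In 3 narrow lists the first bin wholly on the long arm holds 22.1% to 23.4%, against 10.3% in control 1.

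Chromosome 20 took 4.03% of the narrow list of test 1 (137 peaks, 95% exact Clopper-Pearson interval 3.39% to 4.74%), 4.41% in test 2 (184 peaks, 3.81% to 5.08%), 6.66% in control 1 (690 peaks, 6.19% to 7.16%) and 4.48% in control 2 (244 peaks, 3.95% to 5.07%). The interval of control 1 lay above the others, which overlapped each other. These intervals cover counting error only. The group means were 4.22% ± 0.272 in test and 5.57% ± 1.54 in control libraries (SD, n = 2 each), a difference of 1.35 percentage points that was 0.264 without control 1. Broad shares were 3.18%, 3.69%, 5.85% and 3.8%, and the difference of 1.39 points was 0.359 without control 1. With each list cut to the length of the shortest, control 1 still had the largest share, 6.06% of narrow and 5.87% of broad peaks, against 4.03% to 4.76% and 3.18% to 4.06% in the other libraries.

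The peaks of the long arm stood on more background, and their heights are set against the other peaks of the same list. Median pileup of narrow long-arm peaks was 9, 8, 10 and 10 fragments, against 7 in each library for its peaks outside dense windows, the reference for the other library medians in this paragraph too. Their fold enrichment was 6.16, 5.78, 4.84 and 6.12, which is 0.948 to 1.07 times the library median, close to the narrow peaks of the library as a whole. In broad lists the long-arm pileup was 20.3, 16.7, 15.9 and 22.2 fragments, against library medians of 13.4, 11.4, 10.3 and 13.1. Broad fold enrichment there was 3.57, 3.15, 3.04 and 3.26, or 0.855 to 0.877 times the library median. Over the whole chromosome broad fold enrichment was the lowest of 23 chromosomes in every library, at 0.883 to 0.908 times the library median. Background was computed from pileup and fold enrichment, so these values describe the same lists and are no independent check of it.

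The firmness of the calls in narrow lists lay on both sides of that elsewhere. Of its narrow peaks 43.8%, 37.5%, 22.3% and 48.0% had a −log10 q of 5 or more, against 45.2%, 39.1%, 25.9% and 41.4% on the other chromosomes. The share was lower than elsewhere in 3 libraries and higher in control 2. A narrow peak overlapped a broad peak of its own library in 65.7%, 57.1%, 42.2% and 73.8% of cases, and control 1 was lowest in this too. Median narrow peak length was 99, 85, 80 and 94 bp.

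Merging narrow peaks that share 1 bp or more gave 976 regions on the chromosome of 17554 in all, and most were seen once. A peak in a single library made 805 of the 976 regions, or 82.5%, close to the 80.7% of all regions. Of the 976 regions, 616 (63.1%) were called in control 1 alone, against 49.9% of all regions. In broad lists 843 of 1698 regions (49.6%) were control 1 alone, against 38% of 36726. Regions called in both test libraries and control 2 but not in control 1 numbered 41 (4.2%, against 3.82% of all) in narrow lists and 112 (6.60%, against 10.5%) in broad lists. The control 1 lists were the longest, and the part of list length in these shares was not tested. The rule that picked the chromosome used the same peaks, so nothing is read from the shares.

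All 4 libraries called 22 narrow regions on the chromosome, 2.25% of its regions against 3.86% over all chromosomes, 13 of them on the long arm and 8 in the dense window. In broad lists 53 regions were called in all 4, 3.12% against 3.04%, 40 of them on the long arm. All 13 long-arm narrow regions and all 40 long-arm broad ones stood on a background above 1 in every library. The medians of the 13 were 3.17, 3.6, 4.08 and 3.25, above the medians of the arm as a whole. The background of a region includes its own fragments, whose part in this was not tested. Some of the 13 lie within 10 kb of each other and are not separate readings, so nothing is read from the excess. Several of the 13 lay at 29 to 30 Mb, right after the peak-free stretch, where the broad window mean was 3.16. On the short arm, outside the dense window, the 1 narrow region called in all 4 was at 1.56, 2.29, 3.62 and 2.11. Of 8 such broad regions 6, 6, 6 and 8 were above 1, with medians of 1.32, 1.36, 1.29 and 1.61. A background above 1 in regions called by all 4 libraries was thus not limited to the long arm, and its share on other chromosomes was not computed.

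The most enriched of these by its lowest rank over the libraries was chr20:29518527-29518837 (hg19), 311 bp long and close to the start of the long arm. Its fold enrichment was 21.4, 18.4, 23.5 and 21.7, on a background of 3.59, 3.6, 3.59 and 3.31 times the library median. The region chr20:48233988-48234293 followed, with a fold enrichment of 16.9, 29.8, 30.7 and 21.2 and a pileup of 39, 100, 185 and 66 fragments. Its background, 4.30, 7.65, 8.65 and 6.13, was the highest of the long-arm regions called in all 4 narrow lists. That background includes the fragments of the peak itself, and their part at this region was not tested. The region lies in one of the high 1-Mb windows, 48 to 49 Mb. Near the long-arm end chr20:62719949-62720268 had a fold enrichment of 14.8, 16.8, 18.5 and 13.7. All 3 were also broad peaks in all 4 libraries, and the groups overlapped in 2 of them. In the first, both controls lay above both test libraries, but fold enrichment is not normalized between libraries. Outside the dense window the short arm had 1 region in all 4 narrow lists, chr20:20337017-20337181, with a fold enrichment of 8.01, 6.41, 6.72 and 10.3.

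The dense window at the inner end of the short arm held regions with very different backgrounds. At chr20:26189767-26190284 fold enrichment was 17.2, 18.1, 19 and 16.1, on a background of 13.7, 14.9, 12 and 15.3 times the library median. That background was above every long-arm region called in all 4 narrow lists, where the highest reached 8.65. It was nearly the same at the neighbouring peak chr20:26189000-26189138, which lies within the same 10 kb and is no separate reading. This background includes the fragments of the peaks themselves. Elsewhere in the window it was at the level of ordinary long-arm peaks or lower, at 1.5, 1.41, 2.08 and 1.77 in chr20:26319382-26319488 and at 1.66, 1.68, 2.27 and 1.82 in chr20:26310900-26311019. The widest broad region of the chromosome in all 4 libraries, chr20:26076881-26080287, is 3407 bp long and lies in the same window. The next widest, chr20:29651656-29653741 at 2086 bp, lies on the other side of the peak-free stretch on a background of 5.98, 6.24, 6.34 and 5.80. Without a control library, sequence that gathers reads in every library is called as peaks, and repeats were not annotated here.

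Few regions separated the groups. Narrow regions called in both test libraries and neither control numbered 4 on chromosome 20 (0.410% of its regions, against 1.25% of all), 2 on each arm. Those in both controls and neither test library numbered 10 (1.0%, against 1.25%), 6 on the long arm, with 3 in the dense window. In broad lists the counts were 2 test-only (0.118%, against 1.03%) and 24 control-only regions (1.41%, against 1.24%), of which 16 were on the long arm. By definition a peak in control 1 keeps a region from being test-only and is needed for a control-only one. At lists of equal length the test-only and control-only counts were 10 and 5 in narrow lists and 6 and 5 in broad lists. With a library left out the test-only counts were 8 to 56 in narrow and 17 to 180 in broad lists, lowest without control 1. The control-only counts were then 10 to 626 and 31 to 867, highest without control 2.

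The strongest test-only narrow region, chr20:30619323-30619431, was enriched 6.12-fold in test 1 and 6.64-fold in test 2, slightly above the median of those lists. Another, chr20:30655177-30655278 at 5.11 and 5.96, was 1 of the 2 among the 4 test-only narrow regions that overlapped a broad peak of control 2. The strongest control-only region outside the dense window, chr20:62764007-62764137, was enriched 8.07-fold in the first control and 7.05-fold in the second, and broad peaks of all 4 libraries covered it. Of the 10 control-only narrow regions 4 lay under broad peaks of test libraries. The broad test-only regions were chr20:42044547-42045737, at 3.51-fold and 3.53-fold, and chr20:50601691-50602129, at 3.31 and 2.94. Among broad control-only regions chr20:29419686-29420069, the first after the peak-free stretch, led with 4.60-fold and 3.97-fold, and 1 of the 24 overlapped a narrow peak of a test library. Among peaks that 1 narrow list alone held, the strongest outside the dense window were chr20:35871988-35872058 in test 1 at 7.08-fold, chr20:37695724-37695818 in test 2 at 6.88-fold, chr20:1857806-1857870 in the first control at 10.9-fold and chr20:62466461-62466591 in the second at 12.1-fold. The last was not called in the 3 other narrow lists nor in their broad lists.

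The balance of the arms was also set side by side for the groups, a difference that the choice of the chromosome did not use. With 6 ways to assign 4 libraries to 2 groups of 2, the smallest p the exact permutation test allows is 0.33, so none of the 3 tests could pass a threshold of 0.05, whatever the values. The short arm held 21.9%, 16.8%, 21.7% and 21.7% of the narrow peaks of the chromosome. Its mean was 19.4% ± 3.57 in test and 21.7% ± 0.0126 in control libraries (SD, n = 2 each), and the difference of 2.36 percentage points had p = 1 in an exact two-sided permutation test. In broad lists it held 26.5%, 19.4%, 22.6% and 27.6%, with means of 22.96% ± 5.01 and 25.1% ± 3.51 and a difference of 2.17 points (exact permutation p = 0.667). The long-arm over short-arm background was 1.91, 2.19, 1.80 and 2.24, with means of 2.05 ± 0.201 in test and 2.02 ± 0.305 in control libraries and a difference of −0.0288 (exact permutation p = 1). All 3 tests had an adjusted p of 1 after Benjamini-Hochberg adjustment.

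The long-arm background itself was higher in both controls than in both test libraries, by 0.107 in narrow and 0.243 in broad lists. Group means were 1.95 ± 0.0220 in test and 2.06 ± 0.0729 in control narrow lists, and 2.01 ± 0.0824 and 2.26 ± 0.154 in broad lists (SD, n = 2 each). On the short arm the control mean was higher too, by 0.0705 in narrow and 0.181 in broad lists. There the groups overlapped in narrow lists and not in broad ones. The long-arm order was lost in 3 alternatives, where test 1 lay above control 1. These were isolated narrow peaks (2.11 and 1.97), own fragments subtracted (2.21 and 2.06) and the median of the bins as reference (2.27 and 2.22). The raised background of the long arm was thus present in wild-type and in SMARCA2-raised, SMARCA4-knockdown cells, at 1.94 to 2.37 in the 8 lists.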

How the data were processed

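Per the file headers, MACS2 2.2.7.1 called peaks library by library from paired-end fragments, with no control sample and all duplicates kept. The q threshold was 0.05, the regional range 10000 bp and the effective genome size 2700000000. Duplicates add to pileup, and without a control repeats can be called. The deposited pileup is a coverage signal that is not normalized between libraries. Fold enrichment, as deposited, is a ratio of pileup to that library's local background. The authors' p and q are on a −log10 scale. The submitters' processing notes also name Bowtie2 2.3.5.1, cutadapt 3.2, edgeR 3.34.1, Picard and deepTools 3.5.1, with hg19 and no stated roles.

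Members, lists, thresholds and the rule for named regions (strongest by the smallest percentile of fold enrichment in the calling libraries, within each calling pattern) were chosen with earlier results of these data known. Groups follow the labels. Peaks were merged by an overlap of 1 bp, and the bins, arms, dense windows and recovered background were computed as described above with scipy 1.17.1, pandas 2.3.3 and numpy 2.4.6 in Python 3.11.15, and plotted with matplotlib 3.10.9. Merging was tested on simulated peaks. The recovery formula was run on them too, but their pileup had been built with the inverse of that formula. That run therefore checks the arithmetic only and not whether deposited values give the true local background. Alternatives were lists of equal length, a −log10 q of at least 5, dense windows kept or left out, isolated peaks, broad lists, another reference median, 5 peaks per bin, a 50% overlap, each library left out and a replicate block. A planned description of gene loci was not run, since an hg19 annotation was not used here.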

Additional observations from a re-analysis of the deposited data

How the results depend on the processing

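The long-arm background of 2.01 stayed far above 1 under every setting tried, at 1.80 with dense windows of all chromosomes kept in the library median, 2.14 in broad lists, 2.31 against the median of the bins, 1.83 at a −log10 q of 5 or more and 2.16 with the fragments of the peak subtracted, a setting added after the data were seen. The short arm moved to 1.19 with dense windows kept, here also its own, and to 1.14 against the median of the bins, and the count of 7 raised bins was between 5 and 8. The chromosome 20 share stayed higher in controls, by 0.264 to 2.44 points in narrow and 0.359 to 2.42 in broad lists. Differences in the balance of the arms changed sign. The short-arm share in broad lists, 2.17 points higher in controls, was −0.963 at a −log10 q of 5 or more and −1.37 to 5.71 with a library left out, and in narrow lists that range was −0.168 to 4.88. The long-arm over short-arm difference of −0.0288 was 0.488 with dense windows kept, 0.00281 in isolated peaks, 0.506 at a −log10 q of 5 or more and −0.244 to 0.187 with a library left out. The narrow share changed sign without test 2, the broad share without test 2 and without control 2, and the background difference without test 2 and without control 1. Regions of the groups depended most on which libraries were used. Narrow test-only regions numbered 1 at a −log10 q of 5 or more, 10 at equal list lengths and 8 to 56 with a library left out, and control-only ones 5 at equal lengths and 10 to 626. Broad test-only regions numbered 6 at equal lengths and 17 to 180 with a library left out, and control-only ones 2 at a −log10 q of 5 or more, 5 at equal lengths and 31 to 867. The cause was not tested beyond the libraries and peaks each setting drops. Same-numbered libraries did not deviate together over the 13 broad bins of chromosome 20 (r = −0.703) or over 489 bins (r = −0.226), so the numbers are not taken as pairs. With 2 libraries per group, crossed numbers give the same r with the opposite sign by construction. Whether crossed numbers pair the libraries was not tested. The replicate block and an added block with crossed numbers made 0 calls for the 3 tested results, as did the exact permutation test without it, which also had 0 at an unadjusted p of 0.05, and the smallest p a block of 2 pairs allows is 0.5. In all, 9 alternative values changed sign and 27 moved by more than the spread between libraries, or by more than 1.5 times for counts. The other 71 kept their sign, though the chromosome shares among them varied widely, as given above. Some outcomes in this tally were fixed in advance, so it does not measure stability. A replicate block repeats the main difference. Leaving out 1 of the 2 libraries of a group can turn the sign of a control-minus-test difference but cannot move it by more than that spread. Narrow bins from 0 to 20 Mb hold fewer than 3 peaks in at least 1 library, and group differences rest on 2 libraries each.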
